A study of Diospyros lotus with 24 samples.

Results

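The 200 contigs described here are those on which small RNA reads of bud tissue lay most densely while the contig itself was also read as mRNA. Of 417827 assembled contigs in the mRNA table, 22303 averaged 10 to 200 CPM (counts per 1000000 counts of the library) of mRNA over 17 progeny trees. Of these, 20127 also had a ratio of small RNA CPM in the father over the mother between 0.25 and 4. From these, the 200 were chosen by their small RNA counts per kilobase, summed over both parents, as the highest, and the remaining 19927 contigs served for comparison. The trees were Diospyros lotus, a persimmon with separate male and female trees, of the KK family, whose parents were a male and a female of the cultivar Kunsenshi. The mRNA libraries came from mixed buds with early primordia of the father, the mother, 9 sons and 9 daughters, with 1 library per tree. Bud small RNA came from the same father and mother, 1 library each. The labels give 2 collection dates for the buds, June 17 and July 4 of 2013, placed at the early male and the early female stage, and tie no library to a date. If male trees belong to the earlier date and female trees to the later, sex and date cannot be told apart.

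Plants make small RNAs by cutting double-stranded RNA. MicroRNAs come from hairpin transcripts of their own genes, and small interfering RNAs come from longer double-stranded RNA, often copied from a transcript by an RNA-dependent RNA polymerase. Loaded into Argonaute proteins, they guide cleavage or reduced translation of matching RNA, or methylation of matching DNA, including that of transposable elements. A contig that matches many small RNA reads can be a source of them, a target of them, or a fragment of an abundant structural RNA. The count tables hold no read lengths, strands or contig sequences, so these kinds could not be separated. No contig ID matched an annotated gene (0 of 27971 in the RefSeq table), so no role can be given to any contig. IDs are written without their shared ending DeNovoAssembly.

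The 8 usable son libraries held 5823321 to 15314430 mRNA counts, the 9 daughter libraries 3527282 to 6963244, the father 6840388 and the mother 6925001. Son replicate 5 held 387 counts in all, 4 of them on the 200 contigs, and was left out. The small RNA libraries held 14168901 counts in the father and 19315399 in the mother. In mRNA the parents stood apart from the progeny, the 10 most abundant contigs taking 5.78% of counts in the father and 4.48% in the mother, against 0.952% to 1.96% in the progeny.

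The 200 contigs made up 0.0479% of the contigs and took 14.8% of the father's small RNA counts and 11.3% of the mother's. Their density, which chose them, had a median of 11278 small RNA counts per kb, against 15.7 in the other contigs. The 5 densest held 27.6% of the small RNA on the set. Contig283705 (331 bases) was the densest, with 281055 small RNA counts in the father and 243367 in the mother. Contig362075 (269 bases) followed and lay toward the mother, with 42659 counts in the father and 200782 in the mother. The next 6 by density were Contig287915, Contig277704, Contig292939, Contig265491, Contig292460 and Contig233016, all 200 to 312 bases long. The limit of the set fell where neighbours hardly differed: Contig298298, Contig244306 and Contig234754, the last 3 inside it, had 2946, 2942 and 2938 counts per kb, and Contig316443, Contig253148 and Contig313141, the next 3 outside it, had 2931, 2927 and 2921. Of all contigs with mRNA, 2631 were at least as dense as the contig ranked 200, and 2399 of these averaged below 10 CPM of mRNA.

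Small RNA on the set leaned toward the father. The ratio of small RNA CPM in the father over the mother, which the choice of contigs bounded, had a median of 1.58 and ran from 0.290 for Contig362075 to 3.84 for Contig243226. It was above 1 for 172 contigs, 86.0% of the set against 61.8% of the others, and below 1 for 28. The exact 95% interval for counting error excluded 1 upward for 172, excluded it downward for 25 and spanned it for 3. Such intervals were computed for the set alone. At least 2-fold more in the father was found for 37 contigs, 18.5% of the set against 15.6% of the other contigs, and at least 2-fold less for 5, 2.5% against 5.60%. Among the other contigs the median ratio was 1.17, and among the 870 of them with at least 500 small RNA counts it was 0.909. With 1 library per parent these ratios have no replicate check, and PCR copies are not independent molecules, so the intervals cover counting error only.

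The set consisted mostly of short contigs. Lengths ran from 200 bases (Contig292939) to 6534 bases (Contig293994) with a median of 316, against a median of 1542 in the other contigs. Over all contigs the median length was 311. Under 300 bases long were 87 contigs, or 43.5% of the set against 3.56% of the others, and 41 contigs, or 20.5% against 69.7%, had 1000 bases or more. The mRNA level in the progeny had a median of 34.6 CPM in the set and 25.5 CPM in the others. Per length the levels differed more, with a median of 73.1 CPM per kb in the set and 19.7 in the others. It was 23.6 when the others were weighted to the set's distribution over bands of CPM. The choice divided small RNA counts by length and bounded the mRNA level. Short contigs and high levels per length therefore follow in part from the choice itself. The longest contig, Contig293994, had the lowest level per length, 4.07 CPM per kb, and the highest reached 885 CPM per kb. Contig293994 carried 117451 small RNA counts in the father and 53618 in the mother, a CPM ratio of 2.99. Its mRNA had 24.9 CPM in the father and 30.2 CPM in the mother, against a lowest, median and highest of 16.3, 26.0 and 38.5 CPM in progeny, so the parents lay inside the range of their offspring. Within the set, density and mRNA level per kb had a Spearman correlation of 0.404 over 200 contigs, a value in which both measures share the contig's length.

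The mRNA of these contigs varied more from tree to tree than that of other contigs of the same mRNA level. The standard deviation (SD) of log2(CPM + 0.5) over the 17 progeny had a median of 0.50 in the set and 0.24 in the others after weighting to the same mRNA bands. By band the medians were 0.54 against 0.31 at 10 to 20 CPM, and 0.50 against 0.24 at 20 to 50 CPM. At 50 to 100 CPM they were 0.48 against 0.20, and at 100 to 200 CPM 0.51 against 0.19. The gap was therefore present in all 4 bands and smallest in the lowest. In 188 of 200 contigs the SD was above the median of the other contigs of the same band, and in 175 it was above their upper quartile. After subtraction of counting error, the coefficient of variation among trees had a median of 33.9% in the set and 15.2% in the others. The highest tree was at least 4-fold above the lowest for 59 contigs, or 29.5% of the set and 6.53% of the others.

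**Figure D1:**
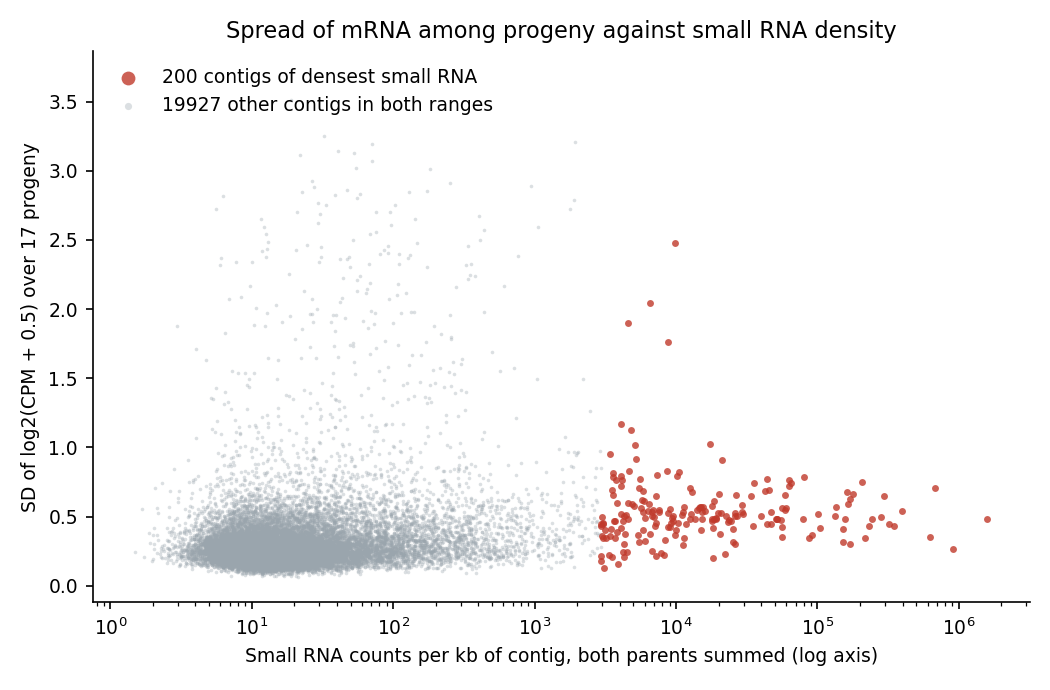
Each point is 1 contig: the horizontal axis gives small RNA counts per kb summed over both parents on a log axis, and the vertical axis the SD of log2(CPM + 0.5) of its mRNA over 17 progeny. The 200 densest contigs (red, median SD 0.50) lie mostly above the dense band of the 19927 other contigs (grey), and 4 of them stand far above the rest of the set.

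The gap was smaller in long contigs. Under 300 bases the median SD was 0.52 in the set and 0.32 in the others, at 300 to under 1000 bases 0.49 and 0.28, and at 1000 bases or more 0.36 and 0.25. The wider spread was seen in each sex taken alone. Among the 8 sons the median SD was 0.42 in the set and 0.22 in the others weighted to the same bands, and among the 9 daughters it was 0.46 and 0.25. Spread and density were hardly related inside the set, with a Spearman correlation of 0.075 over 200 contigs. A steady level was also found: Contig140071 had an SD of 0.13, the lowest of the set, Contig195688 had 0.16 and Contig298298 had 0.18. Contig140071 (2082 bases) was measured at a lowest, median and highest level of 41.1, 55.0 and 58.9 CPM in sons and 51.2, 56.1 and 61.1 CPM in daughters. Its level thus lay in a narrow range shared by both sexes, and all 3 of these contigs were over 2000 bases long. Contig195688 (2663 bases) was as steady among progeny, at 57.8, 71.2 and 84.2 CPM as lowest, median and highest, yet both parents lay above that range. They had 165 CPM (father) and 182 CPM (mother), a log2 fold change of parents over progeny of 1.36 ± 0.10 (SE) with an edgeR adjusted p of 8.07e-10.

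A few contigs varied widely among trees. Contig313479 (1560 bases), of SD 2.48, had a lowest, median and highest level of 0.798, 16.5 and 131.9 CPM in sons and 2.23, 17.3 and 167 CPM in daughters. It lay below 5 CPM in 3 sons and 4 daughters, between 12.5 and 38.1 CPM in 2 sons and 2 daughters, and above 80 CPM in 3 sons and 3 daughters, limits chosen after its values were seen. The sexes were thus spread alike over the 3 levels, and both parents were low, the father at 4.53 CPM and the mother at 5.92 CPM. Small RNA on it was plentiful in both parents, with 11193 counts in the father and 4204 in the mother.

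Contig316732 (3457 bases) also split the trees. It lay at 0.895 to 4.74 CPM in 3 sons and 5 daughters and at 13.8 to 49.4 CPM in 5 sons and 4 daughters, with no tree between. The father had 6 mRNA counts (0.877 CPM) and the mother 239 (34.5 CPM), a father over mother ratio of 0.0254 with an exact 95% interval of 0.00923 to 0.0561. The parents therefore lay on opposite sides of the gap seen among their offspring. Small RNA on the contig was nevertheless counted 10544 times in the father and 19609 times in the mother, a CPM ratio of 0.733. No other contig of the set differed between the parents by 4-fold or more in mRNA.

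Contig299420 (1454 bases, SD 2.05) and Contig298628 (1727 bases, SD 1.90) went up and down together. Contig299420 had a lowest, median and highest level of 0, 12.7 and 27.1 CPM in sons and 0.862, 12.2 and 280.5 CPM in daughters. Contig298628 had 0, 7.65 and 24.4 CPM in sons and 0.574, 7.80 and 163 CPM in daughters. Daughter replicate 5 held the highest value of both. This tree also stood far above all other progeny in some contigs of the set that are not named here. Son replicate 9 had no count of either contig of the pair, the only counts of 0 on the set in any of the 17 progeny. Across 17 progeny the log2 levels of the pair had an r of 0.98, and without daughter replicate 5 an r of 0.97 over 16. Both were lower in the father than in the mother, at 25.1 against 79.9 CPM for Contig299420 and 12.1 against 40.3 CPM for Contig298628, while their small RNA ratios were 1.09 and 1.07.

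**Figure D2:**
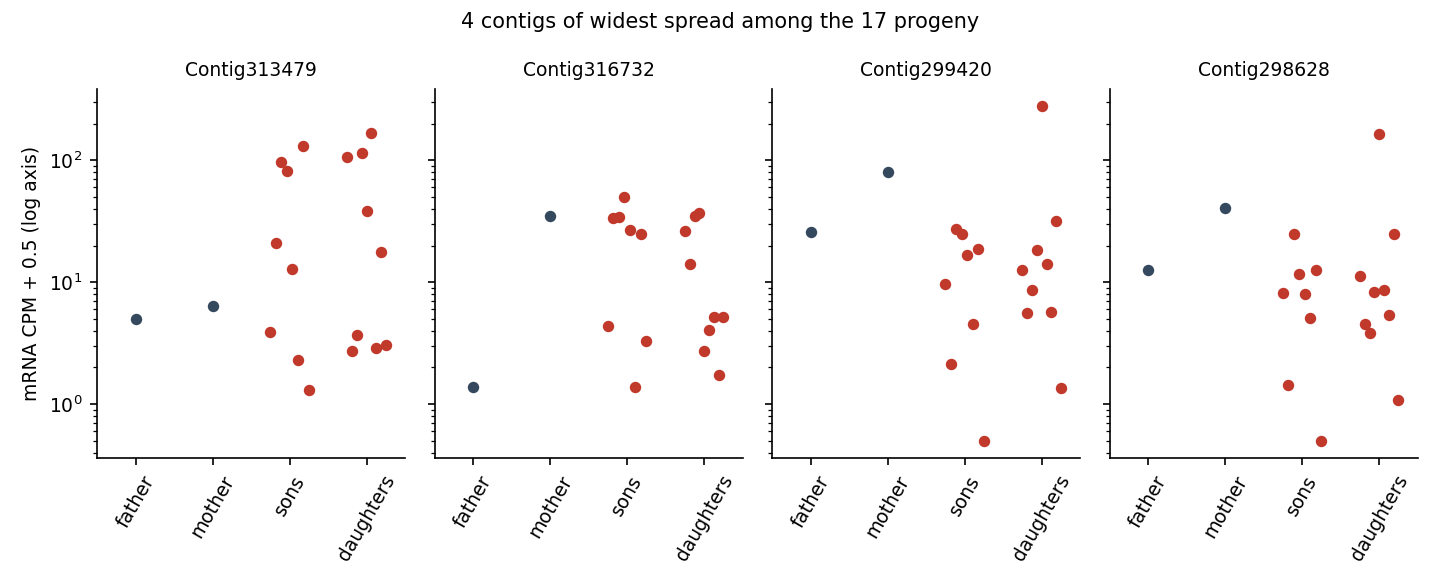
Points give mRNA CPM + 0.5 on a log axis for the father, the mother, 8 sons and 9 daughters (1 library per tree) in the 4 contigs with the largest SD among progeny. Contig316732 has no tree between 4.74 and 13.8 CPM and parents on either side of that gap, and daughter replicate 5 stands highest in Contig299420 and Contig298628.

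Most of the set, however, varied as a block. The level of 136 contigs (68.0%) had an r above 0.5 with the mean of the other members across the 17 progeny, against 2.68% of the other contigs. For 103 contigs r was above 0.8 and for 20 it was below 0, with a median of 0.80 in the set and -0.16 in the others. Pairs of contigs inside the set had a median r of 0.41, against 0.02 between other contigs, and 437 of 19900 pairs had an r above 0.95, joining 98 contigs. The first principal component took 42.7% of the variance among trees in the set and 20.8% in the others. These are descriptions over 17 libraries that every contig shares. CPM allows for library depth, but a difference in library composition can move many contigs of a library at once. Its part was not tested.

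The 103 contigs that followed the block most closely were short, with a median length of 285 bases, whereas the 64 with an r of 0.5 or less had medians of 873.5 bases (44 contigs, r of 0 to 0.5) and 1109.5 bases (20 contigs, r below 0). The closest pair was Contig286251 (223 bases) and Contig342242 (289 bases), with an r of 1.00 to 2 decimals. They had lowest, median and highest levels of 84.3, 156 and 272 CPM and of 64.2, 120.5 and 200.5 CPM over the progeny. Whether such contigs are pieces of 1 transcript or copies of 1 repeat was not tested, since their sequences were not used here, and reads shared between copies may have been divided among them.

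**Figure D3:**
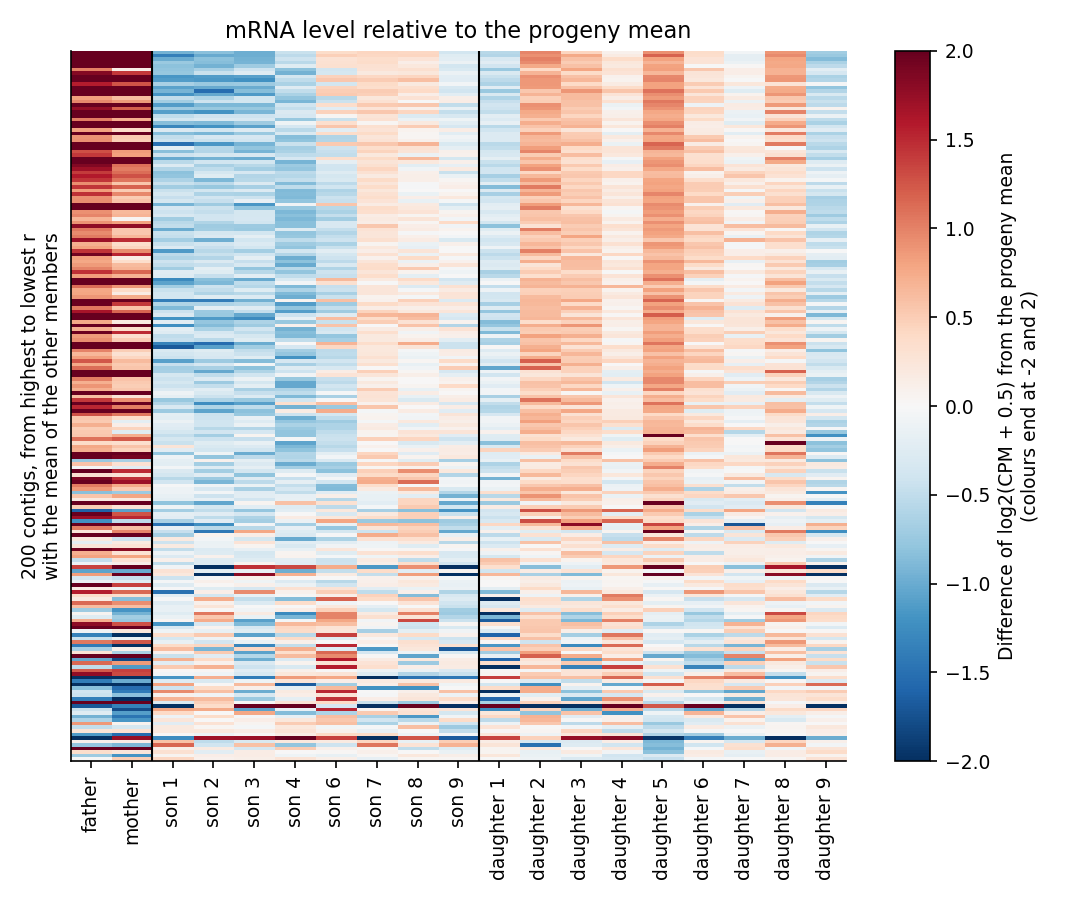
Rows are the 200 contigs, from the highest to the lowest r with the mean of the other members, and columns the father, the mother, 8 sons and 9 daughters. Colour gives log2(CPM + 0.5) minus the contig's progeny mean, ending at -2 and 2. Most rows are low in sons 1 to 4, 6 and 9 and in daughters 1 and 9. Most are high in sons 7 and 8, in daughters 2 to 8 and in both parents. Both parents lie above all 17 progeny for 82 contigs, and the bottom rows do not follow.

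Summed over the set, the share of a library's mRNA counts shows which trees were high. It was 0.829% ± 0.153 (SD, n = 8) in sons and 1.11% ± 0.252 (SD, n = 9) in daughters. The ranges overlapped, 0.694% to 1.07% in sons and 0.758% to 1.51% in daughters. Sons 1 to 4 had 0.694% to 0.710% and the other 4 sons 0.857% to 1.07%, so the sons themselves fell apart. Sons 1 to 4 and daughter 1, the 5 usable libraries with titles from L1 to L7, had the 5 lowest means of log2(CPM + 0.5) over the set among progeny. By share of counts, daughter 9, with a title above L7, lay just under daughter 1, at 0.758% and 0.760%. The labels do not say what these title numbers stand for. Among the libraries with titles from L8 up, sons had 0.956% ± 0.108 (SD, n = 4) and daughters 1.15% ± 0.231 (SD, n = 8). Depth also differed by sex, with 8331558 ± 2984007 counts in sons and 5341544 ± 1076555 in daughters (SD, n = 8 and 9). The part of title number and depth in the difference was not tested. In bulk buds, fewer cells of a type and less RNA per cell cannot be told apart.

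**Figure D4:**
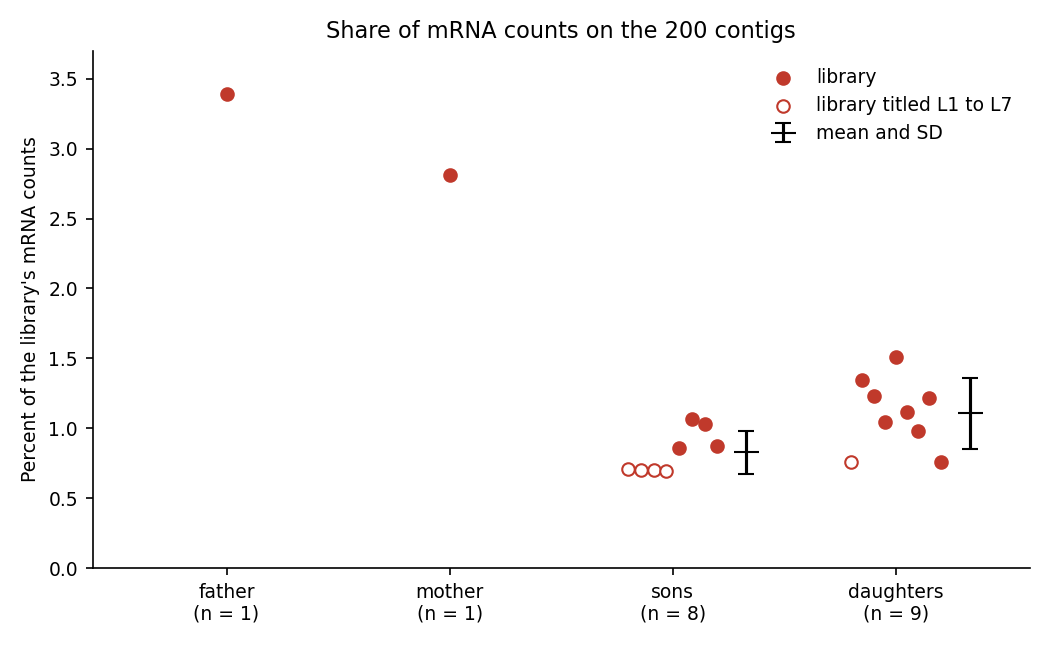
Points give the percent of each library's mRNA counts that fell on the 200 contigs in the father, the mother, 8 sons and 9 daughters, with the mean and SD beside the progeny groups; open points are libraries titled L1 to L7. The father (3.39%) and the mother (2.81%) lie above all progeny, and the 4 lowest points are sons of the open kind.

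Between sons and daughters no contig of the set passed edgeR's quasi-likelihood test at an adjusted p under 0.05, although the set as a whole lay lower in sons. All 200 contigs were tested among 62831. Called higher in sons were 0 (background 0.0159%) and called lower 0 (background 0.0318%), or 0.0477% of all contigs in either direction. At an unadjusted p under 0.05 there were 100 contigs, 50.0% of the set and 7.08% of all contigs tested, and all 100 were lower in sons. Since most of the set varied together over the same 17 libraries, these contigs are not separate observations. DESeq2 called 1 lower in sons, limma-voom 0, and edgeR's same test with no filter on low counts 26. The log2 fold change of sons over daughters was below 0 for 172 contigs (86.0%) and above 0 for 28, with a median of -0.48. In the other contigs weighted to the same bands 38.4% were below 0, with a median of 0.03. In no contig did all sons lie on 1 side of all daughters (background 0.0223% for sons above and 0.0286% for daughters above).

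The shift between the sexes was smallest in the least dense contigs of the set, in the longest and in those that did not follow the block. The median log2 fold change was -0.51 for ranks 1 to 50, -0.54 for ranks 51 to 100, -0.44 for ranks 101 to 150 and -0.22 for ranks 151 to 200. For ranks 201 to 400, just outside the set, it was -0.06. By length it was -0.54 in the 87 contigs under 300 bases, -0.48 in 72 of 300 to under 1000 bases and -0.15 in 41 of 1000 bases or more, against 0.04, 0.04 and 0.03 in other contigs of these lengths. The shortest contigs of the set thus lay lowest in sons, while other contigs as short did not. By r with the mean of the other members, the median was -0.56 at an r above 0.8 and -0.47 at 0.5 to 0.8. At an r of 0 to 0.5 it was -0.15, and below 0 it was 0.08. Density and length had a Spearman correlation of -0.37 in the set, and the block contigs were short. The parts of density, length and block in the shift were therefore not separated. Without the 5 libraries titled L1 to L7 the median of the set was -0.27, a check added after the data were seen.

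Contig315254 (2317 bases) had the smallest p between the sexes. Its lowest, median and highest levels were 4.52, 6.66 and 12.7 CPM in sons and 8.22, 18.5 and 27.3 CPM in daughters. The ranges overlapped only through the highest sons and the lowest daughters. The log2 fold change was -1.20 ± 0.24 (SE) with edgeR's adjusted p of 0.0782. It passed in 7 of 27 alternative fits, among them DESeq2 with an adjusted p of 0.00111. Contig321584 (744 bases) followed, with 20.8, 26.6 and 39.8 CPM in sons and 29.0, 47.3 and 56.8 CPM in daughters, and an edgeR adjusted p of 0.406 at a log2 fold change of -0.62 ± 0.17 (SE).

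In the direction of sons, Contig386379 (4652 bases) had the smallest p. It had 28.0, 34.0 and 42.2 CPM in sons and 22.8, 30.8 and 38.6 CPM in daughters as lowest, median and highest. The log2 fold change was 0.20 ± 0.10 (SE) at an edgeR adjusted p of 0.728. Contig262394 (327 bases) came next, at 5.95, 14.5 and 24.5 CPM in sons and 3.44, 8.78 and 17.8 CPM in daughters, with a log2 fold change of 0.57 ± 0.32 (SE) and an edgeR adjusted p of 0.761. In both, the sexes overlapped over most of their range, and both moved against the block, with an r of -0.78 and -0.38.

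Between the generations the set differed far more. The parents, whose small RNA chose the contigs but whose mRNA did not, had 3.39% (father) and 2.81% (mother) of their mRNA counts on the set, against 0.694% to 1.51% in the 17 progeny. In edgeR's quasi-likelihood test of parents over progeny, with sex as a term, 109 of the 200 contigs were called higher in the parents (background 14.7% of 89128 tested) and 16 lower (background 13.4%). Among the other contigs of the same mRNA and ratio ranges the calls went the other way, 8.12% higher and 33.3% lower. The choice bounded the mean mRNA of the progeny at 10 to 200 CPM and left that of the parents free. The comparison is therefore not independent of the choice, and the other contigs, under the same bounds, are the closer background. How far the bounds shift the calls was not tested. The median log2 fold change was 0.83 in the set and -0.32 in the others weighted to the same bands. At an unadjusted p under 0.05 there were 150 contigs, 75% of the set against 38.9% of all contigs tested. Both parents lay above all 17 progeny for 82 contigs (background 11.8%) and below all of them for 10 (background 11.9%).

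The calls rest on 2 parent trees, 1 of each sex, and on a spread estimated from the progeny. Since most of the set varied together, its contigs are not separate observations here either. Age, sampling date and library handling of the parents cannot be told apart from generation. With 1 parent alone fewer contigs of the set, and fewer of all contigs, were called in either direction. The median log2 fold change of the set was 0.43 with the mother alone and 1.23 with the father alone. With both parents, the higher calls were most frequent where small RNA was densest. There were 32, 30, 27 and 20 in successive groups of 50 by rank, and the lower calls were 0, 0, 5 and 11. By length, 57 of 87 contigs under 300 bases were called higher, 38 of 72 of 300 to under 1000 bases and 14 of 41 longer ones. Among other contigs of these lengths 9.15%, 7.59% and 7.89% were called higher.

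**Figure D5:**
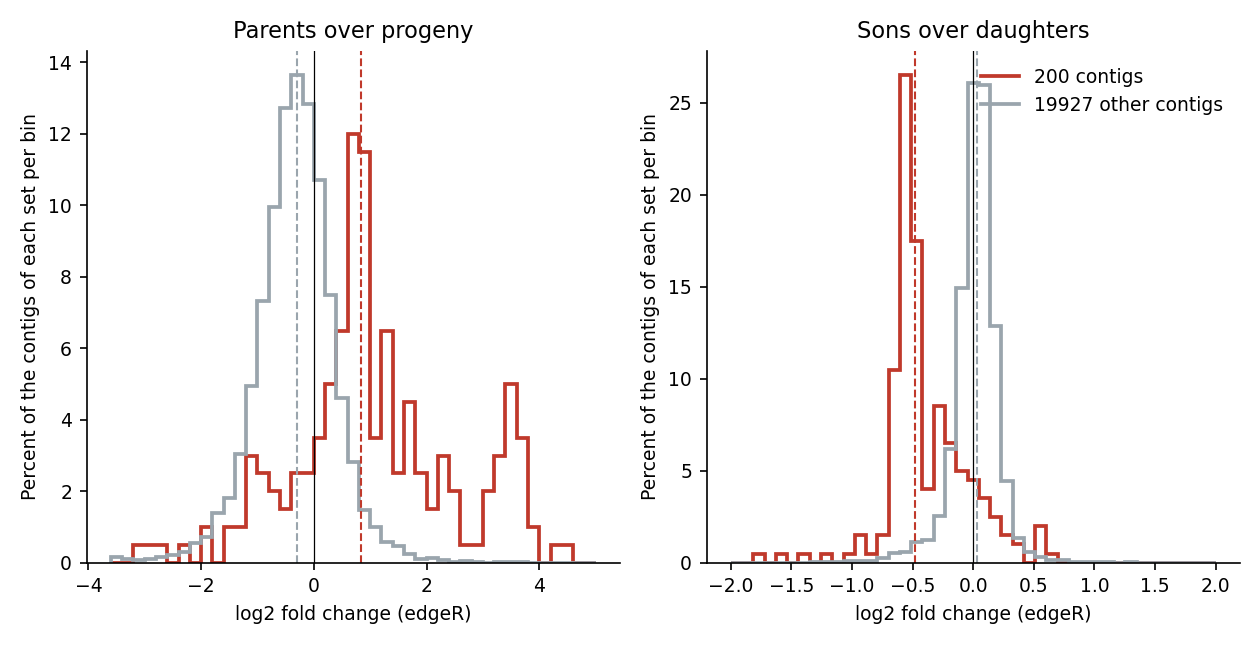
Histograms give the percent of the 200 contigs (red) and of the 19927 others (grey) per bin of edgeR's log2 fold change, parents over progeny on the left and sons over daughters on the right, with dashed lines at the medians and values beyond the axis placed in the end bins (4 of the others were not tested between the sexes). The set peaks above 0 for parents and below 0 for sons, and 31 of its contigs lie at a log2 fold change of 3 or more in parents.

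Among the contigs higher in parents, 31 were taken as the group of largest differences. A log2 fold change of 3 or more was found for 31 contigs and of 2 to under 3 for 15, together 23.0% of the set against 0.391% of the others. The largest group, 77 contigs, had a log2 fold change of 0 to under 1. The 31 had a median length of 284 bases and a median small RNA density of 43790 counts per kb, above the 11278 of the whole set. Density did not rise steadily with the difference. Its median was 17853 counts per kb at a log2 fold change of 0 to under 1, 6778 at 1 to under 2 and 6875 at 2 to under 3. Together the 31 took 1.5% of the father's mRNA counts and 1.35% of the mother's, against 0.062% to 0.243% in the progeny. All 31 were called, in all 31 both parents lay above all 17 progeny, and 28 had an r above 0.8 with the mean of the other members. The group was delimited after its values were seen, and its numbers are a description.

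Contig287915 (245 bases), the third by density, belongs to it. The father had 1787 CPM and the mother 1657 CPM, against a lowest, median and highest of 59.7, 142 and 262 CPM in progeny. Both parents were thus far above every offspring, with a log2 fold change of 3.66 ± 0.36 (SE) and an edgeR adjusted p of 2.17e-06. Contig233016 (309 bases), the eighth by density, had 592 CPM in the father and 541 CPM in the mother, against 22.6, 44.4 and 92.3 CPM in progeny (log2 fold change 3.61 ± 0.33, SE; edgeR adjusted p = 1.13e-06). Contig362075, the second by density, was not called, with 22.2 CPM in the father and 20.6 CPM in the mother against 9.67, 17.8 and 22.7 CPM in progeny and an edgeR adjusted p of 0.197.

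The smallest p-values for a higher level in parents belonged to 4 contigs. Contig228445 (358 bases) had 136 CPM in the father and 152 CPM in the mother, against 14.1, 18.5 and 33.6 CPM as lowest, median and highest in progeny, with a log2 fold change of 2.89 ± 0.17 (SE) and an edgeR adjusted p of 3.03e-12. Contig205834 (1067 bases) had 507 CPM in the father and 365 CPM in the mother, against 12.7, 21.6 and 34.4 CPM in progeny, with a log2 fold change of 4.40 ± 0.22 (SE) and an edgeR adjusted p of 6.86e-11. Both contigs were many times more abundant in either parent than in the highest offspring. Contig277596 (229 bases) had 65.6 CPM in the father and 60.2 CPM in the mother, against 11.8, 17.4 and 20.8 CPM in progeny (log2 fold change 1.96 ± 0.14, SE; edgeR adjusted p = 1.10e-10). Contig192135 (2672 bases) had 106 CPM in the father and 104 CPM in the mother, against 10.3, 21 and 28.9 CPM in progeny (log2 fold change 2.41 ± 0.17, SE; edgeR adjusted p = 2.04e-10). In these 4 contigs neither parent's level touched the range of the progeny, and all 4 kept their call in 11 of 11 alternative fits. Their length ran from 229 to 2672 bases, and Contig192135 had an r of -0.38 with the block. A higher level in parents thus also occurred in single contigs that were long or outside the block. Over the set, however, such calls were most frequent in the block, in 80 of 103 contigs with an r above 0.8. At an r of 0.5 to 0.8 there were 13 of 33, at 0 to 0.5 14 of 44, and below 0 2 of 20.

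The 16 contigs lower in parents ran from a log2 fold change of -2.99 to -0.35. Contig298494 (1001 bases) had 15.6 CPM in the father and 11.6 CPM in the mother, against 21.2, 35.2 and 45.6 CPM as lowest, median and highest in progeny (log2 fold change -1.33 ± 0.22, SE; edgeR adjusted p = 7.59e-05). Contig390228 (1155 bases) had 11.7 CPM in the father and 15.6 CPM in the mother, against 22.3, 32 and 42.3 CPM in progeny. Contig298298 (2216 bases) had 26.0 CPM in the father and 18.5 CPM in the mother, against 32.7, 44.4 and 50.2 CPM in progeny. In these 3 both parents lay below all progeny. Contig282888 (332 bases), at 7.60 CPM in the father and 7.80 CPM in the mother against 8.04, 17.2 and 22.8 CPM in progeny, lay just below the lowest tree, and lost its call with either parent as the only one. It did so at edgeR adjusted p-values of 0.0611 with the mother alone and 0.141 with the father alone.

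Between the parents themselves mRNA of the set lay mostly higher in the father. The log2 ratio of father over mother CPM had a median of 0.29 in the set and 0.00 in the others, and was above 0 for 163 contigs (81.5%), against 50.2% of the others. The exact 95% interval for counting error, computed for the set alone, excluded equality upward for 124 contigs and downward for 16, and spanned it for 60. At least 2-fold higher in the father were 8 contigs (background 5.01% of 72035 contigs with at least 20 counts over both parents) and at least 2-fold lower 3 (background 8.92%). That is 4.0% and 1.5% of the set, against 1.61% and 1.86% of the other contigs of the same mRNA and ratio ranges. Contig247859 (251 bases) had the highest ratio, 8.77 CPM in the father and 2.74 CPM in the mother from 60 and 19 counts, a ratio of 3.20 with an interval of 1.88 to 5.67. Contig244069 and Contig243226 followed at 2.89 and 2.80. The densest contig, Contig283705, had 129 CPM in the father and 57.2 CPM in the mother, a ratio of 2.26 with an interval of 2.01 to 2.55.

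The lean of mRNA toward the father ran against the lean of the sons, and it did not track the small RNA of the same parents contig by contig. The father over mother ratios of small RNA and of mRNA had a Spearman correlation of 0.043 over the 200 contigs and 0.050 over the 19927 others. Both small RNA and mRNA were higher in the father for 144 contigs, and both were higher in the mother for 9. Small RNA was higher in the father and mRNA in the mother for 28, and the reverse held for 19. Where small RNA was higher in the mother the median log2 mRNA ratio was 0.17, and where it was higher in the father 0.31. Contig277704 (269 bases), for example, had 43279 small RNA counts in the father and 124654 in the mother, a CPM ratio of 0.473, and mRNA of 55.6 CPM in the father and 47.9 CPM in the mother, a ratio of 1.16 with an interval of 0.997 to 1.35.

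Whether the father over mother difference departed from the son over daughter difference was tested as an interaction of sex and generation. No contig of the set was called in either direction by edgeR's quasi-likelihood test (background 0% of 89128, with 0 called in all), nor by DESeq2. At an unadjusted p under 0.05 there were 8 contigs, 4.0% of the set and 3.23% of all contigs tested. The interaction was above 0 for 184 contigs with a median of 0.73, against -0.01 in the other contigs weighted to the same bands. The median SE was 0.62, since 1 father and 1 mother enter. The opposite leans of parents and progeny are thus described and not shown for any contig.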

How the data were processed

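The authors deposited raw read counts, as whole numbers, for the contigs of a de novo assembly. The mRNA table has 417827 contigs and 20 libraries, and that of small RNA has 421126 contigs, 2 bud libraries and the contig lengths. Per the labels' protocols, mRNA libraries were made by random priming, and those of small RNA with 12 PCR cycles. BWA, R 3.0.1 and DESeq 1.14 are the tools the submitters' processing notes list. How reads with several matches were counted, and whether by strand, is not given in the sources used here. The 2 flower small RNA libraries were not analysed here.

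CPM used each library's total. Counts of all contigs were tested with edgeR 4.0.16 under R 4.3.3 (limma 3.58.1). Contigs were filtered with filterByExpr, scaled with TMM and fitted by robust quasi-likelihood, and p-values were adjusted by Benjamini-Hochberg with 0.05 as threshold. The SE is the log2 fold change divided by the square root of F. Sons over daughters used 17 progeny with sex as the term. Parents over progeny and the interaction used 19 libraries. The fits of sons over daughters and of parents over progeny were tested on simulated data, and the interaction fit was not. Spread used a pseudocount of 0.5. DESeq2 1.42.0, limma-voom, other scalings and filters, glmTreat against a fold of 2, other list sizes and leave-one-out fits served as alternatives. Each tree gave 1 library, so p-values measure the spread between trees.

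The contigs, lists and comparisons were chosen with earlier results of these data known, so the set is described by counts and medians, with no test over its members. Contigs were named by a rule: the 8 densest, the 3 on each side of the limit of the set, those of smallest p in each direction, the 3 of highest and of lowest SD, the 3 of highest and of lowest father over mother mRNA ratio with at least 20 counts, and the shortest and longest. The pair of highest r was singled out after its values were seen.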

Additional observations from a re-analysis of the deposited data

Results flagged for a closer look

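In 7 of 68 groups examined, 1 tree stood apart from the rest of its sex by Dixon's criterion at 95%. The rate of about 1 of 20 groups that chance alone gives does not apply here. Some contigs, Contig299420, Contig298628 and Contig140071 among them, were named for the highest or lowest SD over the same trees. Contig299420 and Contig298628 also went up and down together, so their values are not separate events. The groups were the sons or the daughters in each of 32 named contigs (64 groups), and in 2 levels summed or averaged over the set (4 groups), in which no tree stood apart. Daughter replicate 5 gave 4 of the 7 values. It was high in Contig299420, at 280.5 CPM against 0.862 to 31.2 CPM in the other daughters, and in Contig298628, at 163 CPM against 0.574 to 24.4 CPM. It was low in Contig192135, at 10.3 CPM against 19.2 to 25.8 CPM, and in Contig277596, at 13.9 CPM against 17.4 to 20.8 CPM. Daughter replicate 5 also had the highest share of counts on the 200 contigs among progeny, 1.51%. Among sons, replicate 6 was high in Contig247859, at 69.7 CPM against 9.44 to 32.7 CPM in the other sons. Son replicate 8 was high in Contig277704, at 56.8 CPM against 27.4 to 38.3 CPM. Son replicate 1 was low in Contig140071, at 41.1 CPM against 53.6 to 58.9 CPM. The part of library depth or handling in these values was not tested.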

How the results depend on the processing

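The wider spread of the 200 contigs held in sign under all 27 alternatives run for it. The difference of median SD from other contigs, 0.26, ranged from 0.181 to 0.273. It was smallest without the libraries titled L1 to L7, where the median SD was 0.43 in the set and 0.25 in the others. The count lower in sons, 0, was 26 with no filter on low counts, 1 with DESeq2, 1 with son replicate 5 included and 0 to 2 with 1 tree left out (1 without son replicate 6, daughter replicate 1 or daughter replicate 8, and 2 without daughter replicate 9). No fit called a contig of the set higher in sons. The median log2 fold change of sons over daughters, -0.48, was -0.56 to -0.40 with 1 tree left out, -0.30 for the 400 densest and -0.27 without libraries titled L1 to L7, and negative in all 31 alternatives. Of parents over progeny, the 109 higher were 55 under glmTreat, 61 without the father, 101 without the mother, 62 among the 100 densest and 165 among the 400 densest. The 16 lower were 10 with limma-voom, 0 under glmTreat, 6 without the father, 3 without the mother, 0 among the 100 densest and 58 among the 400 densest, where fewer or more contigs were counted. The median, 0.83, was 0.43 without the father, 1.23 without the mother and 0.53 for the 400 densest. At 4-fold in place of 2-fold, 0 contigs were higher in the father and 1 lower. Of the named contigs lower in parents, all 4 lost their call under glmTreat. Apart from these constructions the cause of each change was not tested.

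No paired analysis was possible because the trees carry no numbers that link a tree of 1 group to a tree of another. Precision is limited by 1 library per tree, by 2 parents and by low counts in a parent, as few as 6 mRNA counts for Contig316732 in the father.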

Other observations

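Outside the chosen mRNA range, 77 contigs averaged above 200 CPM in the progeny, and 32 of these had small RNA at least as dense as the contig ranked 200. Their median SD among progeny was 0.49, against 0.25 in the 45 that were less dense. The log2 fold change of sons over daughters was below 0 in all 32, with a median of -0.49, against 0.07 in the 45, and edgeR's quasi-likelihood test called 0 of the 32 at an adjusted p under 0.05. For parents over progeny the median log2 fold change was 0.76 in the 32 and -0.21 in the 45. Here edgeR called 14 of the 32 higher in parents (background 14.7% of 89128 tested) and 0 lower (background 13.4%). The most expressed dense contigs thus gave values close to those of the 200. They were set apart after earlier results were known, and they were not used in any count above.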
